A study of Mus musculus with 10 samples.

Results

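The genes described here encode the proteins of the mitochondrial ribosome. They were taken as the protein-coding genes of the mouse annotation (GENCODE M21) whose symbol starts with Mrpl or Mrps followed by a number, which gave 78 of 21951 protein-coding genes. Of these, 49 carry an Mrpl symbol, for the large subunit, and 29 an Mrps symbol, for the small subunit. The genes lie on 17 chromosomes, and 5 genes with such a symbol that are not annotated as protein-coding were not counted. Each gene was looked up in 6 lists of ChIP-seq peaks, regions where DNA recovered with an antibody was enriched over input DNA. The antibodies were against Qki-5 (the nuclear form of the RNA-binding protein Quaking), Pol II (RNA polymerase II) and Srebp2 (a transcription factor of sterol synthesis). Each antibody was used once in wild-type (WT) cells and once in Qk-/- cells, so that no list has a replicate and no difference between genotypes was tested.

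The cells of both genotypes were oligodendrocytes differentiated for 3 days with thyroid hormone (T3) from cultured neural stem cells of a FvB/C57BL6 hybrid strain. According to the methods, the stem cells came from the whole brains of Nestin-CreERT2; Qk L/L pups at postnatal day 1, in which exon 2 of Qk is flanked by loxP sites, and Qk was deleted in culture with 4-hydroxytamoxifen at 100 nM. Nestin, whose regulatory sequence drives the Cre, is expressed in neural stem cells. The methods give the Nestin-CreERT2 mice as C57BL/6, which differs from the hybrid strain named above. Cells at passage 7 gave the Qki-5 and Pol II libraries, with 1 input per genotype for both antibodies, and cells at passage 8 gave the Srebp2 libraries and separate inputs. The WT lists held 32280 Pol II, 7539 Qki-5 and 77 Srebp2 peaks, and the Qk-/- lists held 12835, 427 and 28. Every share below depends on the length of its list. Read depth is unknown, and its part in these differences was not tested. Of 11 genes of the oligodendrocyte lineage, 3 (Olig1, Olig2 and Cnp) had a WT Pol II promoter peak, whereas the myelin genes Mbp, Mag and Mog had none, and 5 of 6 neural stem cell and astrocyte genes had one. Pol II was thus called at some genes of the labelled lineage but not at these myelin genes.

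The mitochondrial ribosome translates the few messages encoded by mitochondrial DNA, all of which are for subunits of the oxidative phosphorylation complexes. Its RNA comes from mitochondrial DNA, but all of its proteins are encoded by nuclear genes that Pol II transcribes, made in the cytosol and imported. Part of the proteins descend from those of the bacterial ribosome, and the others were added during the evolution of mitochondria. Oligodendrocytes, which make large amounts of lipid and membrane, need mitochondria for energy and for precursors. Symbols do not map perfectly onto the particle: in mammals Mrps30 and Mrps18a belong to the large subunit, and Mrps36 is now known as a part of the 2-oxoglutarate dehydrogenase complex.

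The sequences below lie just upstream of the transcriptional start site (TSS) of the members on which the results turn (GRCm38, which is mm10; 5′ to 3′ on the strand of the gene). Mrpl12, Mrps33, Mrpl39 and Mrpl44 are shown because they held 4 of the 5 highest Qki-5 enrichments, and Mrps24 and Mrps35 because their Pol II enrichment was among the highest. Mrps27, Mrpl34 and Mrpl51 are shown as examples of promoters with Qki-5 and an ETS motif. Capitals mark exact matches to the 8 motifs described at the end of the results, on either strand.
Mrpl12, chr11:120484463-120484612, plus strand: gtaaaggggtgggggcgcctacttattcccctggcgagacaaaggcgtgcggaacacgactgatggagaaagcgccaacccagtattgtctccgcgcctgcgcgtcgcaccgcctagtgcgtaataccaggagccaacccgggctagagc
Mrps33, chr6:39810989-39811138, minus strand: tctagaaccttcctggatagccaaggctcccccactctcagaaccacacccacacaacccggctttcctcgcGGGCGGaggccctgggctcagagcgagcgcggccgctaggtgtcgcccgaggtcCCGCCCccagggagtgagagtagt
Mrpl39, chr16:84735743-84735892, minus strand: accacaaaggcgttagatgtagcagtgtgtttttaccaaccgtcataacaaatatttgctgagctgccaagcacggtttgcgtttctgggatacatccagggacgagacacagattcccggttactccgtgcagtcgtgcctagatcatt
Mrpl44, chr1:79775868-79776017, plus strand: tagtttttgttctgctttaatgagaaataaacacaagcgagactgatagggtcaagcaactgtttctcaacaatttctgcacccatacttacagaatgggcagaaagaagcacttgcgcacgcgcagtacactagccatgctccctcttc
Mrps24, chr11:5707688-5707837, minus strand: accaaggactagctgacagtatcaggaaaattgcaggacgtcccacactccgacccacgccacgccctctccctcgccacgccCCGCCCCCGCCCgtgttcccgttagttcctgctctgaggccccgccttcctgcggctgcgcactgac
Mrps35, chr6:147042614-147042763, plus strand: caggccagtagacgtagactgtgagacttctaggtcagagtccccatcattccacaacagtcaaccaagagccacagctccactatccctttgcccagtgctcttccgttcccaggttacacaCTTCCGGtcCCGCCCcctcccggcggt
Mrps27, chr13:99344706-99344785, plus strand, the whole stretch up to the first exon of Ptcd2: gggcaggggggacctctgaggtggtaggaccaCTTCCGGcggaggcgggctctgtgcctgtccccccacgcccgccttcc
Mrpl34, chr8:71464809-71464958, plus strand: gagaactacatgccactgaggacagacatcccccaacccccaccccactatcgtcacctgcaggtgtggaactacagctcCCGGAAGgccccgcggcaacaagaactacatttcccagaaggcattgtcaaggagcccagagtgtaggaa
Mrpl51, chr6:125192015-125192164, plus strand: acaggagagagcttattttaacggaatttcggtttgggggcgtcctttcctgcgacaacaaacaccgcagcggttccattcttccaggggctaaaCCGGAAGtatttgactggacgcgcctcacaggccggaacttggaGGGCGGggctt

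To learn whether the genes were engaged by Pol II in WT cells, a promoter was taken as the region within 2 kb of any annotated TSS of the gene, and a peak was counted when it overlapped the promoter by at least 1 bp. All 78 members had a WT Pol II promoter peak, against 54.1% of all protein-coding genes. The calls came from 77 distinct peaks, since Mrpl46 and Mrps11 share one. Fold enrichment, the ratio of the signal at the summit of a peak to its local background, ran from 4.58 to 90.2 with a median of 15.4, beside a median of 15.8 over the 11879 protein-coding genes with such a peak. When these genes were ranked by fold enrichment, the members lay at a median percentile of 47.8, with 17 of 78 in the highest 25% and 11 in the lowest 25%. Pol II was thus called at every member, at enrichments spread over the range of all bound promoters.

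The highest WT Pol II enrichment was 90.2-fold at Mrps6, a bacterial-type protein of the small subunit. Its peak was rank 22 of the list, but the summit lay nearest a TSS of Slc5a3, the myo-inositol transporter gene that shares this promoter, and 28 WT Pol II peaks fell over the Mrps6 gene. Mrps24, the counterpart of bacterial S3, followed with 55.5-fold at its own TSS. Mrps18b had 43.5-fold in a peak 7873 bp wide whose summit lay nearest Ppp1r10, which encodes a regulatory subunit of protein phosphatase 1. Mrps35, a small-subunit protein specific to mitochondria, had 35.99-fold. These 4 genes stood above the other members.

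The next 6 lay close together. Mrps36 had a WT Pol II enrichment of 31.5-fold, Mrpl48 of 31.2-fold, Mrpl28 of 31.1-fold, Mrpl47 of 29.8-fold, Mrps21 of 28.8-fold and Mrpl2, a protein of the core of the large subunit, of 26.2-fold. The summit at Mrpl48 was nearest Rab6a, a Golgi GTPase gene, and that at Mrps21 nearest C920021L13Rik. In all, the WT Pol II summit of 16 members was nearest a TSS of another gene, so that enrichment at these promoters cannot be assigned to the member alone. At the low end were Mrpl55 with 4.58-fold, Mrpl11, which forms the base of the ribosomal stalk, with 6.001-fold, Mrpl3 with 6.96-fold, Mrpl16 with 7.19-fold and Mrps28 with 7.26-fold. The peak at Mrpl55 was also the narrowest, at 226 bp.

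**Figure D1:**
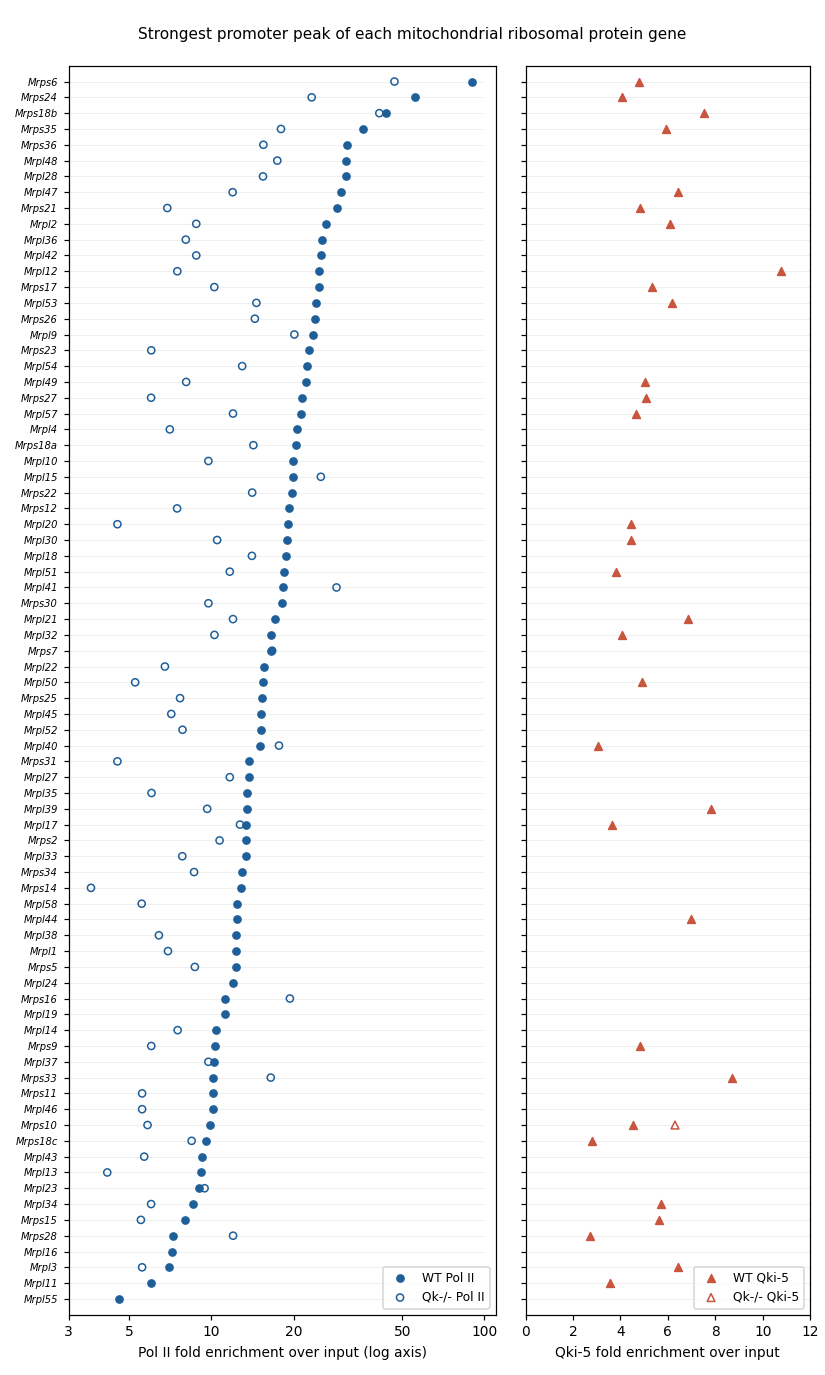
Fold enrichment over input of the strongest promoter peak at each of the 78 genes, ordered by WT Pol II; left, Pol II on a log axis (filled circles WT, open circles Qk-/-), right, Qki-5 on a linear axis (filled triangles WT, open triangle Qk-/-), and no symbol where no peak was called. WT Pol II runs from 4.58 at Mrpl55 to 90.2 at Mrps6, the 32 Qki-5 triangles are spread from top to bottom of this order, and heights of different lists are on different scales.

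The position of the peaks was then compared with the start of the genes. The WT Pol II summit lay a median of 62 bp downstream of the nearest TSS of the member (57 bp over all bound protein-coding genes), and 72 of 78 summits were within 300 bp of it (92.3%, against 82.6%). By annotation, 34 summits fell in a coding exon, 22 in an untranslated region, 10 in an intron and 12 upstream. The WT peaks were 1146 bp wide at the median, beside 1332 bp over the protein-coding genes. Over the length of the gene, 48 members had a single WT Pol II peak and 30 had several. These peaks covered a median of 11.7% of the gene. The same values were not computed over all protein-coding genes, so they are not read as a trait of the members.

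To determine which members were also bound by Qki-5, the same promoters were searched in the WT Qki-5 list. A WT Qki-5 peak was present at 32 of 78 members (41.0%), against 19.4% of all protein-coding genes and 34.6% of those with a WT Pol II promoter peak. Since all members had Pol II, the second share is the one to read the members against, and the members lie a little above it in a list with no replicate. Of the 32 peaks, 16 reached 5-fold enrichment. Their median was 4.96-fold with a range from 2.74 to 10.8, beside 5.15-fold over the protein-coding genes with a Qki-5 peak, and their median percentile was 43.1. The members with Qki-5 thus did not stand above the other bound genes of the list.

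Mrpl12 had the highest Qki-5 enrichment of the members, 10.8-fold with a −log10 q-value of 21.7, at rank 152 of the 7539 peaks. It encodes the stalk protein that contacts elongation factors, and the summit lay 3 bp from its TSS, just after the sequence printed above. Mrps33, a small-subunit protein specific to mitochondria, had 8.71-fold at rank 435. Mrpl39 had 7.80-fold at rank 785, with the summit 422 bp into the gene. Mrps18b had 7.54-fold, but its summit lay at -2114 bp from the TSS and nearest the microRNA gene Mir1894, and a weaker Qki-5 peak lay closer to its start. Mrpl44, a large-subunit protein with an RNase III-like fold, had 6.99-fold. The strongest Qki-5 peaks thus lay at proteins of both subunits, and 1 of the 5 was distant from the TSS of the member.

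The other large-subunit genes with a Qki-5 peak followed without a gap. Mrpl21 had a Qki-5 enrichment of 6.87-fold, Mrpl47 of 6.45-fold, Mrpl3 of 6.41-fold, Mrpl53 of 6.16-fold, Mrpl2 of 6.08-fold, Mrpl34 of 5.69-fold and Mrpl49 of 5.02-fold. Below 5-fold were Mrpl50 with 4.89, Mrpl57 with 4.67, Mrpl20 with 4.45, Mrpl30 with 4.43, Mrpl32 with 4.07, Mrpl51 with 3.80, Mrpl17 with 3.65, Mrpl11 with 3.57 and Mrpl40 with 3.04. Of these, Mrpl3 and Mrpl2 are core proteins beside the peptidyl transferase centre, and Mrpl32 is the protein that a mitochondrial protease must trim before the ribosome can form. Mrpl3 and Mrpl11 combined a Qki-5 peak with WT Pol II enrichments among the 5 lowest of the members.

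Among the small-subunit genes, Mrps35 had a Qki-5 enrichment of 5.93-fold, Mrps15 of 5.63-fold, Mrps17 of 5.34-fold and Mrps27, a pentatricopeptide repeat protein, of 5.06-fold. Mrps9 and Mrps21 both had 4.81-fold, Mrps6 4.78-fold, Mrps10 4.52-fold and Mrps24 4.07-fold. Mrps18c with 2.81-fold and Mrps28 with 2.74-fold were at ranks 7500 and 7508 of 7539, at the edge of what was called. All 4 genes with the highest WT Pol II had a Qki-5 peak, at percentiles of the Qki-5 order from 18.1 for Mrps24 and 38.2 for Mrps6 to 69.5 for Mrps35 and 90.1 for Mrps18b.

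All 32 Qki-5 peaks overlapped the Pol II peak of the same member, as did 92.8% of those at all protein-coding genes with Qki-5. Taken with sign, the median Qki-5 summit lay 4.5 bp downstream of the TSS (7 bp over all protein-coding genes with a Qki-5 peak). The quartiles were -37 and 101.5 bp, and upstream and downstream distances cancel in this median. Of the 32 summits, 30 were within 300 bp of the TSS (93.8%, against 77.97%). The Qki-5 and Pol II summits of a member were a median of 92 bp apart (151 bp over the protein-coding genes with both), and the Qki-5 summit was the more upstream of the pair in 21 of 32 (65.6%, against 55.5%). Both libraries share an input, so the positions are not independent of it. By annotation 16 Qki-5 summits fell in an untranslated region, 8 upstream, 6 in an intron and 2 in a coding exon.

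**Figure D2:**
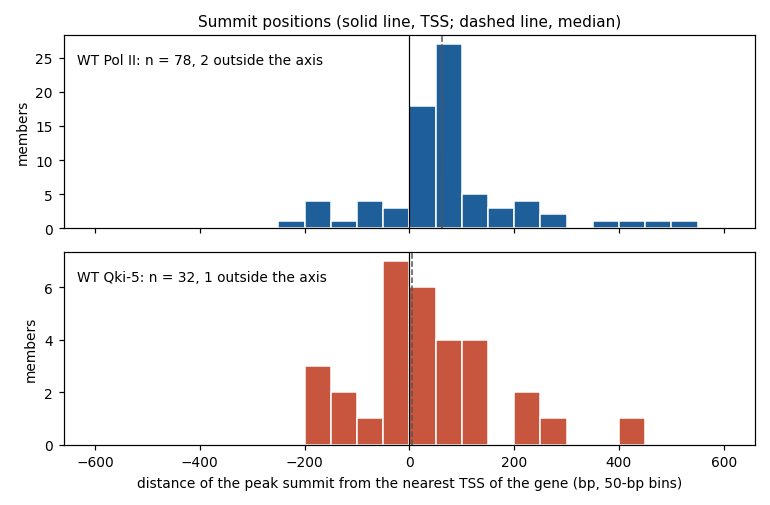
Number of members by the distance of the WT peak summit from the nearest TSS of the gene, in bins of 50 bp along the direction of transcription, for Pol II (78 members) and Qki-5 (32 members). The Pol II summits gather just downstream of the TSS, with a median of 62 bp, and the Qki-5 summits around it, with a median of 4.5 bp.

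The members with and without Qki-5 were set side by side in measures that did not choose them. The 32 with Qki-5 had a median WT Pol II enrichment of 17.8-fold and the 46 without it of 14.5-fold, at median percentiles of 58.0 and 44.2. Over the protein-coding genes with Pol II the same percentiles were 66.8 and 39.9. Across 4 equal groups of the Pol II-bound protein-coding genes from low to high WT Pol II, the share with Qki-5 was 13.6%, 28.6%, 41.2% and 55.01%. Among the members it was 54.5% (6 of 11), 26.7% (8 of 30), 40.0% (8 of 20) and 58.8% (10 of 17). The members lay near the protein-coding genes in the upper 3 groups and above them in the lowest, which holds 11 members. The 6 with Qki-5 in the lowest group were Mrpl3, Mrpl11, Mrpl34, Mrps15, Mrps18c and Mrps28. The peaks of Mrpl11, Mrps18c and Mrps28 were near the end of the Qki-5 list, at ranks 7019, 7500 and 7508 of 7539.

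The Qk-/- Qki-5 list holds the peaks called with the Qki-5 antibody in cells meant to lack its target. Whether these peaks are background of the antibody or Qki-5 left after the deletion was not tested. The list held a promoter peak at 1 member, Mrps10, against 0.87% of all protein-coding genes and 4.18% of those with a WT Qki-5 promoter peak. The Mrps10 protein is the counterpart of bacterial S10, a protein of the head of the small subunit. Its WT peak (chr17:47368662-47369060, 4.52-fold) was rank 5589 of 7539, and its Qk-/- peak (chr17:47368787-47368956, 6.30-fold, −log10 q-value 4.40) was rank 276 of 427. The smaller Qk-/- peak lay wholly inside the WT peak and covered less than 50% of it. The summits were 56 bp apart, and the 30 bases around each are given on the plus strand, the strand of the gene, with a motif match in capitals.
Mrps10, WT Qki-5 summit, chr17:47368857-47368886: cgaacaatgctgtgaccCCGGAAGcggtcc
Mrps10, Qk-/- Qki-5 summit, chr17:47368801-47368830: ttgtttcagtgtcggaacacaggagacact
The other 31 members with WT Qki-5 had no Qki-5 peak in the Qk-/- list. Because fold enrichment depends on the library, the values of Mrps10 in the 2 lists were not compared.

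No member had an Srebp2 peak in either genotype. The background was low, at 0.292% of protein-coding genes in WT and 0.118% in Qk-/- cells, so that the absence of members from lists of this length carries little information.

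To examine whether Pol II was still called in Qk-/- cells, the Qk-/- Pol II list was searched. A promoter peak was present at 72 of 78 members (92.3%), against 46.5% of all protein-coding genes and 85.7% of those with WT Pol II. Fold enrichment in this list ran from 3.62 to 46.8 with a median of 9.12, beside 10.2 over the protein-coding genes, and the median percentile was 41.7. The peaks were 540 bp wide at the median (701 bp over the protein-coding genes) and covered a median of 3.14% of the gene. The lists differ in length and the depth is unknown, so the lower values were not read as less Pol II.

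The 6 members with WT and no Qk-/- Pol II promoter peak were all large-subunit genes, and 14.3% of the protein-coding genes with WT Pol II were without one. When a peak counted only for the gene with the nearest TSS, the count was 12 of 66 members with WT Pol II (18.2%), against 18.4% of protein-coding genes, so that the members were no longer below the background. Their WT Pol II enrichments were 12.4-fold at Mrpl44, 12.03-fold at Mrpl24, 11.2-fold at Mrpl19, 7.19-fold at Mrpl16, 6.001-fold at Mrpl11 and 4.58-fold at Mrpl55. All 6 thus lay below the median of the members, at a median percentile of 22.2 against 52.9 for the members with Pol II in both lists. Over protein-coding genes these percentiles were 10.3 and 56.9. The nearest Qk-/- Pol II summit was 6018 bp away at Mrpl55, 8465 bp at Mrpl24, 14366 bp at Mrpl44, 19131 bp at Mrpl11, 42230 bp at Mrpl19 and 142090 bp at Mrpl16, so that no summit lay just outside the 2-kb window.

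Of the same 6, Mrpl44 and Mrpl11 had WT Qki-5 and the other 4 did not. A Qk-/- Pol II peak was present at 30 of 32 members with WT Qki-5 and at 42 of 46 without it. The shares over protein-coding genes were 95.5% and 80.5%. In the lowest group by WT Pol II, 47.1% of protein-coding genes and 3 of 11 members had no Qk-/- Pol II peak, and in the next group 8.36% and 3 of 30. In the 2 upper groups 1.28% and 0.639% of protein-coding genes and no member of 37 were without a Qk-/- peak.

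The order of the members was compared between genotypes by ranking the 10177 protein-coding genes that had Pol II in both lists. Spearman's rho between the WT and Qk-/- fold enrichments was 0.50 over the 72 members and 0.62 over all of these genes, as a description of pairs of libraries with different inputs. The members lay at a median percentile of 45.5 in WT and 41.4 in Qk-/- cells. In Qk-/- cells 30 members ranked higher and 42 lower than in WT cells, whereas 50.9% of the protein-coding genes ranked higher. A move of more than 25 points was found upward for 11 of the 72 members and downward for 15 of 72, against 15.2% and 14.9% of protein-coding genes.

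Mrps21, the counterpart of bacterial S21, fell by 62.4 points, with 28.8-fold in the WT list and 6.89-fold in the Qk-/- list. Mrpl20, which binds the large ribosomal RNA, fell by 53.2 points, and Mrpl12, with the highest Qki-5 enrichment, fell by 49.3 points. In the other direction Mrps33, with the second-highest Qki-5 enrichment, ranked 64.6 points higher in Qk-/- cells, with 10.2-fold in the WT list and 16.5-fold in the Qk-/- list. Among members without Qki-5, the extremes by the same measure, chosen after their values were seen, were Mrps23 at -56.0 and Mrps16 at 67.3 points. Genes with and without Qki-5 thus stood at both ends, and the median move was -1.72 points with Qki-5 and -4.98 points without it.

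**Figure D3:**
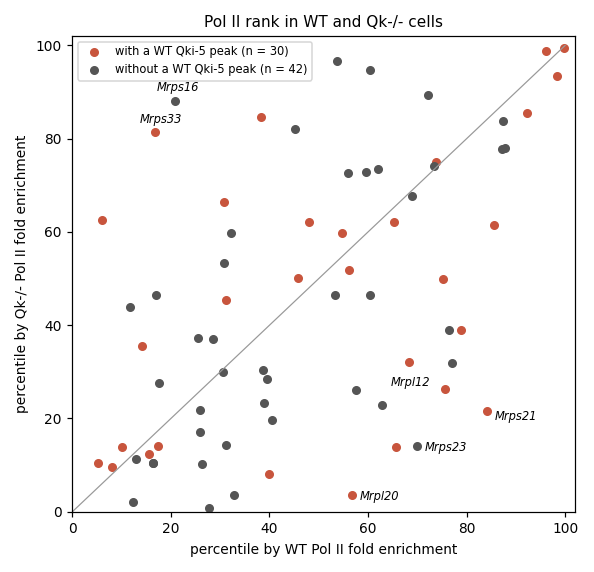
Percentile of each member by Qk-/- Pol II fold enrichment (vertical axis) against its percentile by WT Pol II fold enrichment (horizontal axis), both among the 10177 protein-coding genes with Pol II in both lists; the line marks equal rank. Members with WT Qki-5 (30) and without it (42) lie on both sides of the line, with Mrps21 and Mrpl20 far below it and Mrps33 and Mrps16 far above.

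Many genes of mitochondrial proteins start back to back with another gene. A promoter was called divergent when a TSS of a protein-coding gene on the opposite strand lay within 1000 bp, head to head. This was so for 32 of 78 members (41.0%), against 10.1% of all protein-coding genes and 17.4% of those with WT Pol II. It is a property of the annotation and of no library. The share was 15.9% for the cytosolic ribosomal protein genes and 31.4% for the subunits of oxidative phosphorylation. It was 35.3% for the mitochondrial aminoacyl-tRNA synthetase genes, and 2 of the 5 mitochondrial ribosome genes with other symbols were divergent. The distance between the starts had a median of 61 bp and ran from -622 bp (overlapping 5′ ends) at Mrps30 to 935 bp at Mrpl41. The 5′ ends overlapped in 9 cases and were 0 to 300 bp apart in 21. Over all divergent protein-coding genes the median distance, taken without sign, was 136 bp. The 61 bp of the members keeps the sign of overlapping starts, so these medians cannot be set against each other.

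The Mrpl46 and Mrps11 genes, which encode proteins of the large and the small subunit, are partners of each other with starts 30 bp apart. The 29 bases between them are shown because 1 Pol II peak (chr7:78782614-78783594, 10.1-fold in WT) covered both starts.
Between Mrpl46 and Mrps11, chr7:78783090-78783118, strand of Mrps11: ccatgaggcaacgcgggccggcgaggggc
The WT summit lay 74 bp into Mrpl46, and no Qki-5 peak was called there. Several other partners also act in mitochondria, and the next pairs were picked for that and not for their values. Mrpl36 starts beside Ndufs6 and Mrpl47 beside Ndufb5, both subunits of complex I. Mrpl43 starts beside Twnk, the helicase of mitochondrial DNA, and Mrps12 beside Sars2, a mitochondrial tRNA synthetase.

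For all 32 members the partner had a WT Pol II promoter peak, and for 31 of them it was the peak of the member, the exception being Mrps5 and Zfp661. The WT Pol II summit was nearer the start of the member for 20 members and nearer that of the partner for 12. Mrpl46 and Mrps11 are partners of each other, so their pair and its summit count once from each side. Divergent members had a median WT Pol II enrichment of 18.2-fold and the other 46 of 13.4-fold. All 32 divergent members had a Qk-/- Pol II promoter peak and 40 of the 46 others did (87.0%). The share was 94.2% for all divergent protein-coding genes with WT Pol II. It was 85.7% for all protein-coding genes with WT Pol II, divergent or not, so the higher share at divergent promoters is not particular to the members. Each peak shared by a pair counts for both genes and cannot be split between them.

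Qki-5 was called at 13 of 32 divergent members (40.6%) and at 19 of 46 others (41.3%). Over the protein-coding genes with WT Pol II the shares were 41.6% at divergent promoters and 33.1% at the others. The partners of the 13 were Ndufb5 (Mrpl47), Helq (Mrps18c), Ighmbp2 (Mrpl21), Fau (Mrpl49), Mitd1 (Mrpl30), Ska3 (Mrpl57), Psma2 (Mrpl32), Ptcd2 (Mrps27), Zfp189 (Mrpl50), Hira (Mrpl40), Ppp1r10 (Mrps18b), Klc4 (Mrpl2) and Ncapd2 (Mrpl51). In 12 pairs the Qki-5 peak was the same for both genes, the exception being Mrps18b. The Qki-5 summit was nearer the member in 7 and nearer the partner in 6, so that it leaned to neither side. Fau encodes a ubiquitin-like protein fused to a protein of the cytosolic ribosome, Psma2 a proteasome subunit, Ptcd2 a mitochondrial RNA-binding protein, Hira a histone chaperone, and Ncapd2 and Ska3 proteins of mitotic chromosomes.

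**Figure D4:**
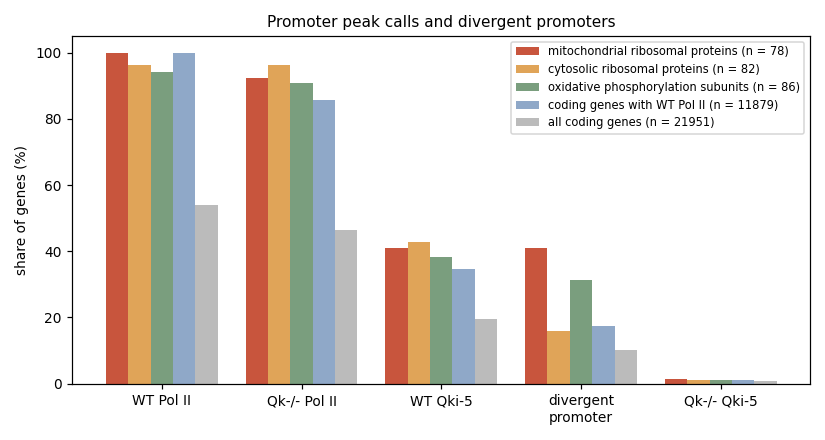
Share of genes (%) with a promoter peak in the WT Pol II, Qk-/- Pol II, WT Qki-5 and Qk-/- Qki-5 lists and share with a divergent promoter, for 78 mitochondrial ribosomal protein genes, 82 cytosolic ribosomal protein genes, 86 oxidative phosphorylation genes, 11879 protein-coding genes with WT Pol II and all 21951 protein-coding genes. The share with a divergent promoter is 41.0% for the mitochondrial ribosomal protein genes, 31.4% for the oxidative phosphorylation genes and 15.9% for the cytosolic ribosomal protein genes, and the shares with Qki-5 are 41.0%, 38.4% and 42.7%.

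By the origin of the protein, Qki-5 was called at 20 of 45 bacterial-type members and at 12 of 33 specific to mitochondria, and Qk-/- Pol II at 41 and 31 of them. By symbol, Qki-5 was called at 19 of 49 large-subunit and 13 of 29 small-subunit genes. Qk-/- Pol II was called at 43 of 49 large-subunit genes and at all 29 small-subunit genes. As background, 34.6% of protein-coding genes with WT Pol II also had a WT Qki-5 peak, and 85.7% kept a Qk-/- Pol II call. Among the 72 members with Qk-/- Pol II, 19 had the summit nearest a TSS of another gene. These 19 include genes of both subunits, and their calls cannot be assigned to the member alone. At Mrps18b and Mrpl34 no Qk-/- Pol II peak fell over the gene itself. The medians of WT Pol II were 15.2-fold for the large and 16.5-fold for the small subunit.

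The other genes of mitochondrial translation were counted in the same way. All of them had a WT Pol II peak, against 54.1% of all protein-coding genes. None had an Srebp2 peak, against 0.292% in WT and 0.118% in Qk-/- cells. For the counts that follow, the shares over protein-coding genes with WT Pol II were 34.6% for WT Qki-5 and 85.7% for Qk-/- Pol II. Of 5 ribosome proteins with other symbols, Dap3, a GTP-binding protein of the small subunit, had Qki-5 at 4.32-fold and Aurkaip1 at 5.56-fold, and all 5 had Qk-/- Pol II. Of 10 translation factors, the elongation factor gene Tufm had Qki-5 at 3.40-fold and the initiation factor gene Mtif2 at 4.86-fold, and 8 had Qk-/- Pol II. Those without it were the elongation factor genes Tsfm and Gfm1, which were named after their values were seen.

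Of 20 genes of ribosome assembly and modification of ribosomal RNA, 6 had WT Qki-5. They were the GTPase genes Mtg1 with 6.99-fold and Gtpbp10 with 3.78-fold, the RNA methyltransferase gene Mrm1 with 5.70-fold, the pseudouridine synthase family gene Rpusd4 with 5.06-fold, the RNA helicase gene Dhx30 with 3.80-fold and Mterf3 with 3.56-fold. In this list 18 genes had Qk-/- Pol II. Of 17 mitochondrial aminoacyl-tRNA synthetase genes, which charge the tRNAs, 8 had WT Qki-5 and 15 had Qk-/- Pol II. The 8 were Aars2 with 7.62-fold, Fars2 with 5.87-fold, Pars2 with 4.92-fold, Iars2 with 4.73-fold, Tars2 with 4.32-fold, Hars2 with 4.17-fold, Wars2 with 3.53-fold and Ears2 with 3.34-fold. The shares with Qki-5 in these 4 lists lie on both sides of the 41.0% of the members, the highest being the 47.1% of the synthetases, and lists of this size allow no order among them.

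Set beside the larger groups, the members had the lowest median Pol II enrichment. The median WT Pol II enrichment was 15.4-fold for the members, 21.3-fold for 81 oxidative phosphorylation genes and 30.0-fold for 79 cytosolic ribosomal protein genes, at percentiles of 47.8, 70.2 and 87.7. WT Qki-5 was called at 33 of 86 oxidative phosphorylation genes (38.4%) and 35 of 82 cytosolic ribosomal protein genes (42.7%). These groups share no gene with the members, but a promoter can be shared, as those of Mrpl36 and Mrpl47 are. No test of the difference was made, since the groups come from single libraries.

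To see what else the promoters have in common, exact matches to 8 motifs were searched on both strands from 250 bp before to 50 bp after the principal TSS. The letters were CCGGAAG for ETS factors, AAGATGG for YY1, CGCATGCG for NRF1, CCAAT for NF-Y, GGGCGG for the GC box of Sp factors, TGACGTCA for the CRE, CACGTG for the E-box and ACTACAA for ZNF143. ETS and YY1 share the letters AAG, but no member held matches merged in this way. The ETS letters were present at 29 of 78 members (37.2%), against 11.2% of 21938 protein-coding promoters and 18.2% of those with WT Pol II. YY1 matched at 14 members (17.9%, against 7.37% of promoters with WT Pol II) and NRF1 at 5 (6.41%, against 3.95%). The GC box matched at 37 members (47.4%), fewer than the 65.3% of promoters with WT Pol II, and NF-Y at 27 (34.6%, against 38.5%). The E-box matched at 4 members (5.13%, against 9.93% of promoters with WT Pol II), the CRE at 2 (2.56%, against 3.52%) and ZNF143 at 6 (7.69%, against 4.29%).

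The ETS letters lay close to the start. Within 100 bp on either side of the TSS they were present at 35 members (44.9%), against 15.8% of promoters with WT Pol II, and 6 members held more than 1 match. Among the 43 members with a match within 500 bp, the nearest was a median of 41 bp from the TSS. In the sequences printed above the match is on the opposite strand in Mrps35 and Mrps27 and on the strand of the gene in Mrpl34 and Mrpl51, and the 150 bases of Mrpl12, Mrpl39 and Mrpl44 hold no match to any of the 8 motifs. In the longer window the ETS letters were present at 13 of 32 members with Qki-5 (40.6%) and 16 of 46 without it (34.8%). Over protein-coding promoters with WT Pol II these shares were 19.8% and 17.4%. Within 100 bp on either side the order of the members was reversed, with 14 of 32 (43.8%) and 21 of 46 (45.7%). The protein-coding shares there were 16.6% and 15.4%, so the order of the members depends on the window. The median GC content of the window was 57.7% for the members and 61.0% for protein-coding promoters with WT Pol II, and the observed to expected ratio of CpG was 0.822 and 0.776. A match of letters is a description of the sequence, and binding of these factors was not measured.

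**Figure D5:**
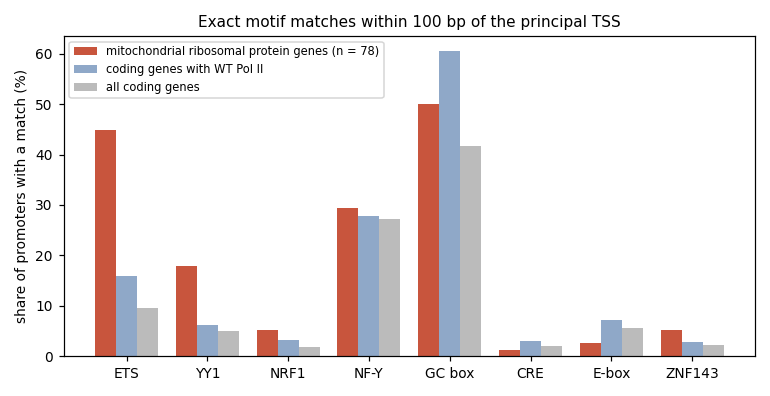
Share of promoters (%) with an exact match to each motif within 100 bp on either side of the principal TSS, for the 78 members, the protein-coding genes with WT Pol II and all protein-coding genes. ETS matches were present at 44.9% of members against 15.8% of promoters with WT Pol II, YY1 matches at 17.9% against 6.22%, and GC boxes at 50.0% against 60.5%.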

How the data were processed

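ChIP-seq peak lists of differentiated oligodendrocytes (Qki-5, Pol II and Srebp2, WT and Qk-/-, 1 library each) were used as deposited. Samples were grouped by the antibody and genotype in their labels. The methods state trimming with Trim Galore, alignment with Bowtie2, removal of duplicates with SAMtools and peak calling by MACS2 over the matching input, at a q-value of 0.05; mm10, MACS2 2.1.2, bcl2fastq and Bowtie 1.2.2 are listed in the submitters' processing notes. The fold enrichment deposited by the authors is the ratio of summit signal to local background. The deposited −log10 p and −log10 q values are those of MACS2 at the summit, and the deposited score is 10 times the −log10 q-value. No read totals are given in the sources used here, so depth and precision are unknown; genes were ranked within a list, and fold values of different lists, where given together, were not compared.

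Promoters were the regions within 2000 bp of 77258 TSSs of the GENCODE M21 basic annotation. A peak counted for every promoter it overlapped, and the strongest by fold enrichment gave the value. Percentiles were taken among protein-coding genes with a peak. Sequences were read from GRCm38 with pysam 0.24.0, and tables were made in Python 3.11.15 with pandas 2.3.3, numpy 2.4.6 and scipy 1.17.1 and figures with matplotlib 3.10.9. Peak assignment was tested on simulated data. With 1 library a group, no test was made; a q-value is that of MACS2 for 1 peak.

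Named are the members with a WT or Qk-/- Qki-5 peak, the 10 highest and 5 lowest by WT Pol II, those without Qk-/- Pol II, the divergent partners of these, and, of the other lists, the genes with Qki-5; others are marked. The members, lists and tests were chosen with earlier results of these data known. Mrpl55 had been listed as bacterial-type and was moved to the mitochondria-specific proteins after the data were seen. 1 of the lineage genes first listed is not reported here. Alternatives were other q-values, fold minimums, windows, assignments and motif windows.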

Additional observations from a re-analysis of the deposited data

How the results depend on the processing

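Of the counts and median percentiles, 67 of 71 values under an alternative stayed within 1.5 times the value in the report. These include the Srebp2 counts, which were 0 under every setting and were scored as unchanged. The difference from the share over protein-coding genes was not scored. WT Pol II was called at 66 to 78 members and Qk-/- Pol II at 56 to 72, and no alternative gave an Srebp2 peak at a member. The lowest Pol II counts came when a peak counted only for the gene with the nearest TSS. In that setting 47.4% of all protein-coding genes had WT Pol II and 40.3% had Qk-/- Pol II, in place of 54.1% and 46.5%. With a fold enrichment of at least 5, Qki-5 was called at 16 members in place of 32, since the other 16 peaks were lower, and the share with Qki-5 among protein-coding promoters with WT Pol II was 19.95% in place of 34.6%. When a peak counted only for the gene with the TSS nearest its summit, the members with WT and no Qk-/- Pol II were 12 of 66 in place of 6 of 78 (18.2%, against 18.4% of protein-coding genes), and 12 of 69 (17.4%, against 17.4%) when only protein-coding TSSs were used, an alternative added after seeing the data. The former gave 23 and the latter 25 members with Qki-5, and a peak shared by 2 genes is lost to 1 of them by construction. When the Qk-/- Qki-5 peak had to cover at least 50% of the WT peak, no member (0 in place of 1) was left, since the Qk-/- peak at Mrps10 was 170 bp wide and the WT peak 399 bp. Qki-5 was called under each of these settings at 10 members: Mrpl2, Mrpl3, Mrpl12, Mrpl34, Mrpl39, Mrpl44, Mrps15, Mrps17, Mrps33 and Mrps35. The divergent members numbered 29 to 36. The 29 came with a gap of at most 500 bp, where 15.6% of protein-coding genes with WT Pol II were divergent. The 36 came when partner genes of any type counted, where 28.5% of those genes were divergent, in place of 17.4%. No paired analysis was possible because each antibody and genotype has 1 library. Depth is unknown, so a promoter without a peak may hold binding below what was detectable.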
